A study of Mus musculus with 5 samples.

Results

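The genes described here are 10 members of the bone morphogenetic protein (BMP) pathway, namely 5 ligands, 3 secreted antagonists and 2 receptors. They were chosen by name as BMP pathway genes, with earlier results of these data known. Each was present in all 5 count tables, among 23284 gene symbols in all. The ligands were Bmp2, Bmp4, Bmp5, Bmp7 and Gdf5, the antagonists Grem1, Nog and Chrdl1, and the receptors Bmpr1a and Bmpr1b. RNA was sequenced from mouse forelimb buds in 3 groups. The mutant group (2 libraries) was the distal forelimb of Hoxa13-/-;Hoxd13-/- embryos at E11.5, on a mixed C57BL/6 and CD1 background. The wild-type group (2 libraries) was the distal forelimb of wild-type embryos at E11.5 on the same mixed background. The E10.5 group (1 library) was the forelimb bud of CD1 embryos, with no mutant allele in its labels. The Hoxa13 allele carries a neomycin cassette in the coding region and the Hoxd13 allele a lacZ reporter in the first exon, and both are present in every cell of the embryo. Each E11.5 library came from its own pool of micro-dissected limb parts (the protocol gives N = 4 without saying whether per pool), so cells of all types in the part are mixed. Between the E11.5 libraries and the E10.5 library, stage, dissected part and strain label changed together.

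BMPs are secreted dimers that assemble a type I receptor, such as BMPR1A or BMPR1B, with a type II receptor, and the activated type I receptor phosphorylates SMAD1, SMAD5 and SMAD9. Antagonists such as gremlin, noggin and the chordin-like proteins bind the ligands outside the cell and keep them from their receptors. In the limb bud BMPs act on the apical ectodermal ridge, on cartilage condensation and on the death of cells between the digits, and Grem1 shields the ridge from BMPs so that FGF signalling there lasts.

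The letters before the RefSeq starts of the 3 members called below, Grem1, Bmp5 and Bmpr1b, are shown because they are the promoter-proximal DNA of the genes that differed between genotypes. The 250 bases before each start were taken from the RefSeq promoter table of GRCm38.p6 and are printed 5′ to 3′ on the gene's strand. Capitals mark matches, on either strand, to the letters CCAAT or TATAAA. The windows are chr2:113758649-113758898 (minus strand) for Grem1, chr9:75775115-75775364 (plus strand) for Bmp5 and chr3:141982265-141982514 (minus strand) for the farthest upstream of 3 listed Bmpr1b starts.
Grem1: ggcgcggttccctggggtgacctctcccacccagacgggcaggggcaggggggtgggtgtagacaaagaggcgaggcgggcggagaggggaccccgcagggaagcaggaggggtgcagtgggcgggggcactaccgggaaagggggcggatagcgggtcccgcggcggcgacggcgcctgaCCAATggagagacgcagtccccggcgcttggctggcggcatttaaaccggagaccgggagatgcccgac
Bmp5: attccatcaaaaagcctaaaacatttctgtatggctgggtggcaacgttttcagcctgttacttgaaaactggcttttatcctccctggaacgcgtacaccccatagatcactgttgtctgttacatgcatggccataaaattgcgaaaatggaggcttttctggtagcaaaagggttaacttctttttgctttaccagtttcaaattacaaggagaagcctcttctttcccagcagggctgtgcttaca
Bmpr1b: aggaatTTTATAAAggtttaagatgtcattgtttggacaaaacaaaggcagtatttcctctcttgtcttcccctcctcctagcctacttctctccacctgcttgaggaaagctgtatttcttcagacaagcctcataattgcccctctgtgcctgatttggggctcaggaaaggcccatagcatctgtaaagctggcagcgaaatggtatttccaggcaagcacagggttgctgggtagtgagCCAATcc

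The windows differ in base composition. The Grem1 window was 72% G and C with 24 CpG dinucleotides, the Bmp5 window 42.8% with 4, and this Bmpr1b window 46.8% with 1. Grem1 had a CCAAT match whose first base lay at -69 from the start. The Bmpr1b window had a CCAAT match at -7 and overlapping TATAAA matches at -244 and -242, and the Bmp5 window had neither. The other 2 listed Bmpr1b windows had no match to either, with 56.4% and 52.8% G and C and 5 CpG dinucleotides each. The letters CAATAAA and TCGTAAA, forms of the site bound by HOX13 proteins, were in none of the 7 windows listed for 5 members (Bmp4, Bmp5, Bmpr1a, Bmpr1b and Grem1). Among 32851 windows of the same length, CAATAAA was in 4.2%, TCGTAAA in 0.478%, CCAAT in 33.8% and TATAAA in 12.4%. CCAAT can overlap CAATAAA. No match says only that these letters are not in this window.

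Reads counted in genes ranged between 45115494 and 59837137 in the E11.5 libraries and were 84172202 at E10.5. Hoxd13 had 47.7 and 40.0 counts per 1000000 reads in genes (CPM) in the mutant libraries, against 247 and 246 CPM in wild type. Hoxa13 had 48.0 and 39.8 CPM in mutant, against 50.8 and 47.2 CPM in wild type (log2 fold change -0.17, adjusted p = 0.438). Counts per gene do not show where in a transcript the reads lie, so the level of Hoxa13 is no check of the genotype. All 8 limb mesenchyme markers examined, among them Prrx1 and Tbx5, were detected in every library. Their summed level was 1959 and 1949 CPM in mutant, 1858 and 1771 CPM in wild type and 1502 CPM at E10.5, although 5 of the 8 fell and 1, Prrx1, rose (median log2 fold change -0.41).

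In the Hoxa13-/-;Hoxd13-/- distal forelimb, the antagonist Grem1 and the ligand Bmp5 rose and the receptor Bmpr1b fell, each by less than 2-fold. The other 7 members were not called. The words rose and fell are used where edgeR's quasi-likelihood test gave a Benjamini-Hochberg adjusted p below 0.05 over the 16166 genes tested. All 10 members passed the filter on low counts. Of all genes tested 3.82% rose and 3.34% fell, 7.16% together, beside the 2 risen and 1 fallen of 10 members. Since the members were chosen with earlier results known, no conclusion on the pathway is drawn from these shares. The 10 members had a median log2 fold change of 0.11, against -0.00082 over all genes tested. Fold changes throughout are mutant over wild type. In such bulk tissue, fewer cells of a type and less RNA per cell cannot be told apart.

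**Figure D1:**
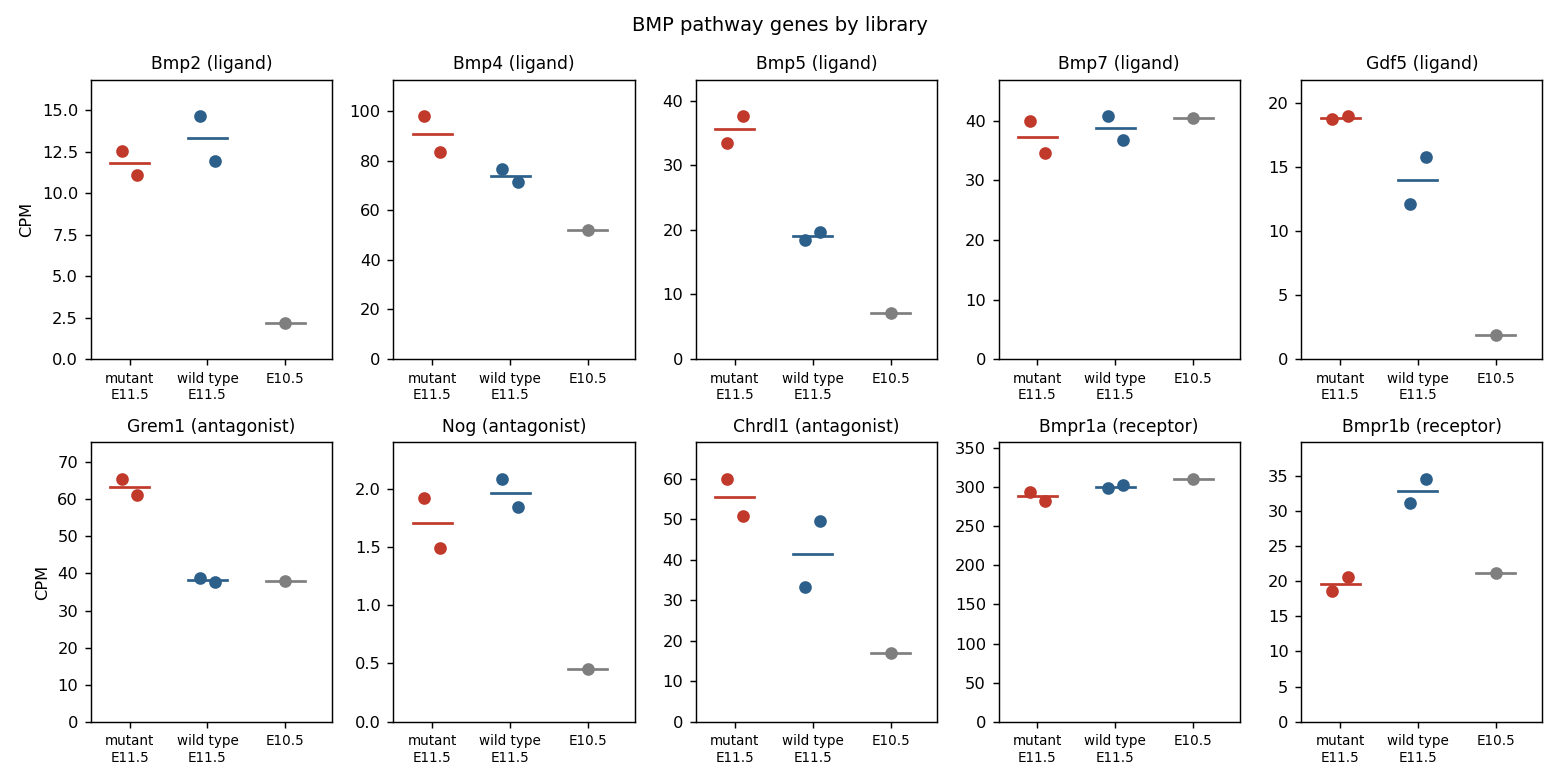
Counts per 1000000 reads in genes (CPM) of the 10 BMP pathway genes, 1 panel a gene, with each point a library and each bar the mean of the group. The mutant points of Grem1 and Bmp5 lie above both wild-type points, those of Bmpr1b lie below them, and those of Bmp7 overlap them.

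Bmp5, a ligand of the BMP5, BMP6 and BMP7 subgroup that shapes skeletal elements, had 33.5 and 37.6 CPM in mutant, against 18.4 and 19.6 CPM in wild type. Both mutant libraries lay above both wild-type libraries, and the fit gave a 1.85-fold rise (95% interval 1.56 to 2.18, log2 fold change 0.88, SE 0.11, adjusted p = 0.000399). This was the largest change among the 10 members. Bmp7, of the same subgroup and expressed in ridge and mesenchyme, was not called. It had 40.0 and 34.7 CPM in mutant, against 40.8 and 36.7 CPM in wild type, and these values overlapped (0.956-fold, 95% interval 0.815 to 1.12, adjusted p = 0.812). The exons of Bmp5 overlap those of Gm26903 on the opposite strand in GENCODE vM21, and since the sources used here do not state whether counting was by strand, reads of either gene cannot be told apart.

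Bmp4, a ligand of ridge and mesenchyme, had 98.0 and 83.6 CPM in mutant, against 76.7 and 71.5 CPM in wild type. The genotypes did not overlap, but the difference missed the threshold (1.22-fold, 95% interval 1.05 to 1.41, adjusted p = 0.124). Bmp2, the close relative of Bmp4, had 12.5 and 11.1 CPM in mutant, against 14.6 and 11.9 CPM in wild type. These values overlapped (0.882-fold, 95% interval 0.713 to 1.09, adjusted p = 0.558). Bmp2 and Bmp4 therefore had estimates on opposite sides of no change, neither of which was called.

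Gdf5, which marks the future joints and promotes cartilage growth, had 18.8 and 19.0 CPM in mutant, against 12.2 and 15.8 CPM in wild type. The mutant values were close together and both above wild type, but the wild-type libraries were apart from each other, and the difference was not called (1.33-fold, 95% interval 1.07 to 1.66, adjusted p = 0.121). A rise was called without wild-type replicate 2 (log2 fold change 0.65, adjusted p = 0.00437), whereas leaving out wild-type replicate 1 gave 0.22 with an adjusted p of 0.316. Opposite-strand exons of Gm15557 overlap Gdf5, and those of Gm15217 overlap Bmp4, so the same doubt on strand holds for both.

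**Figure D2:**
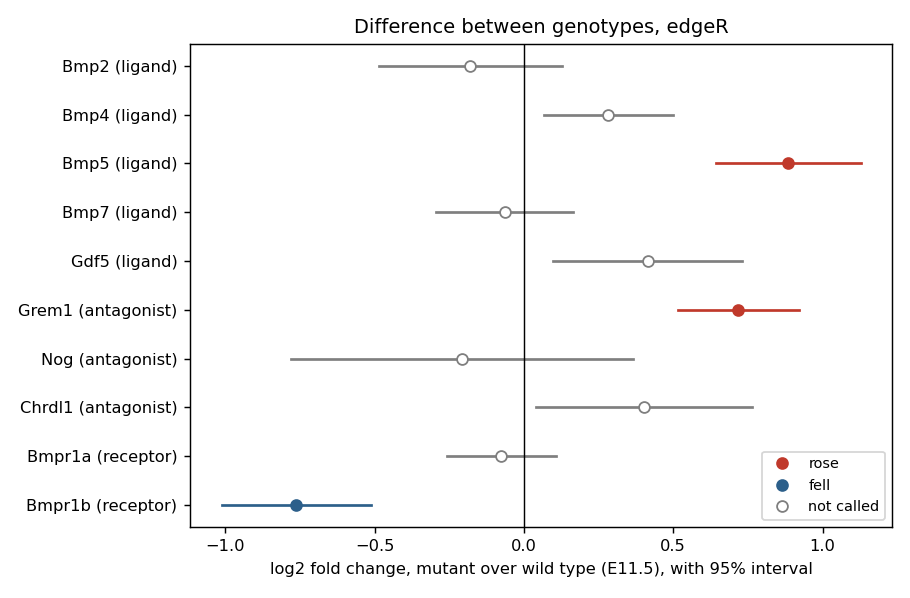
Log2 fold change of each member, mutant over wild type at E11.5, with its 95% interval derived from the edgeR fit (2 libraries a genotype). The intervals of Bmp5 and Grem1 lie wholly above 0.5, that of Bmpr1b lies wholly below -0.5, and the open points were not called.

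Among the antagonists, Grem1 was the member that rose. It had 65.5 and 61.3 CPM in mutant, against 38.8 and 37.6 CPM in wild type. The genotypes did not overlap, and the spread within each was small beside the gap between them (1.65-fold, 95% interval 1.43 to 1.89, log2 fold change 0.72, SE 0.09, adjusted p = 0.000488). Leaving out any of the 4 libraries gave a log2 fold change between 0.66 and 0.77. Nog, the noggin gene of cartilage condensations, was low, with 1.92 and 1.49 CPM in mutant, against 2.08 and 1.84 CPM in wild type. Its counts were 115 and 72 reads in mutant and 94 and 103 reads in wild type. These values overlapped, and the interval was too wide to separate a fall from a rise (0.866-fold, 95% interval 0.582 to 1.29, adjusted p = 0.750).

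Chrdl1, the chordin-like antagonist, had 60.0 and 50.9 CPM in mutant, against 33.2 and 49.7 CPM in wild type. The mutant libraries were both higher, but wild-type replicate 2 lay close to mutant replicate 2, and the difference was not called (1.32-fold, 95% interval 1.03 to 1.70, adjusted p = 0.202). The outcome rested on which wild-type library was kept. With wild-type replicate 2 left out, the log2 fold change was 0.76 and the adjusted p 0.000198, and without wild-type replicate 1 it was 0.12 with an adjusted p of 0.550. A rise was also called without mutant replicate 2 (0.52, adjusted p = 0.0153).

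Of the type I receptors, Bmpr1b fell and Bmpr1a was not called. Bmpr1b, the receptor of prechondrogenic condensations and a receptor for GDF5, had 18.6 and 20.6 CPM in mutant, against 31.1 and 34.5 CPM in wild type. Both mutant libraries lay below both wild-type libraries, at 0.590 of the wild-type level (95% interval 0.496 to 0.701, log2 fold change -0.76, SE 0.11, adjusted p = 0.00141). Bmpr1a, the broadly expressed receptor, had 293 and 283 CPM in mutant, against 299 and 303 CPM in wild type. The mutant libraries were both slightly lower, and no difference was called (0.948-fold, 95% interval 0.835 to 1.08, adjusted p = 0.704). Opposite-strand exons of Gm17110 overlap Bmpr1a, with the doubt on strand given above.

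In 7 of the 10 members the libraries of the genotypes did not overlap, with 5 higher and 2 lower in mutant. The same held for 49.5% of all genes tested, with 26.6% higher and 22.9% lower. The calls of Grem1, Bmp5 and Bmpr1b were present under all 10 other settings tried. Over these settings the log2 fold change of Bmp5 lay between 0.81 and 0.96, that of Grem1 between 0.66 and 0.77 and that of Bmpr1b between -0.86 and -0.65. Bmp2, Bmp4, Bmp7, Nog and Bmpr1a were called under none of the 10, Gdf5 under 2 and Chrdl1 under 3.

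Ratios of reads between members within a library do not depend on its depth. Each pair below sets a called member over one not called, so its difference between genotypes partly restates the calls. Bmpr1b had 6.33 and 7.28 reads per 100 Bmpr1a reads in mutant, 10.4 and 11.4 in wild type and 6.81 at E10.5. The mutant ratios lay on both sides of the E10.5 ratio and below both wild-type ratios. Grem1 had 66.8 and 73.3 reads per 100 Bmp4 reads in mutant, 50.5 and 52.6 in wild type and 72.9 at E10.5. Here too the E10.5 ratio lay within the mutant range. Only the ratio matched, since in mutant both genes were above their E10.5 CPM (Grem1 1.73-fold and 1.62-fold, Bmp4 1.89-fold and 1.61-fold). Grem1 had 164 and 177 reads per 100 Bmp7 reads in mutant, 95.0 and 102 in wild type and 93.7 at E10.5. For this pair the E10.5 ratio lay beside wild type. Bmp5 had 83.6 and 109 reads per 100 Bmp7 reads in mutant, 45.2 and 53.4 in wild type and 17.4 at E10.5, with the E10.5 ratio below all E11.5 libraries. Over all members of each kind, the 3 antagonists had 62.8 and 61.2 reads per 100 reads of the 5 ligands in mutant. Wild type had 45.5 and 57.3, and E10.5 had 53.6. Wild-type replicate 2 thus lay close to mutant, and the E10.5 ratio lay between the wild-type libraries. Exact permutation tests of 2 against 2 libraries cannot go below p = 0.333 (two-sided), so these ratios are given without one.

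**Figure D3:**
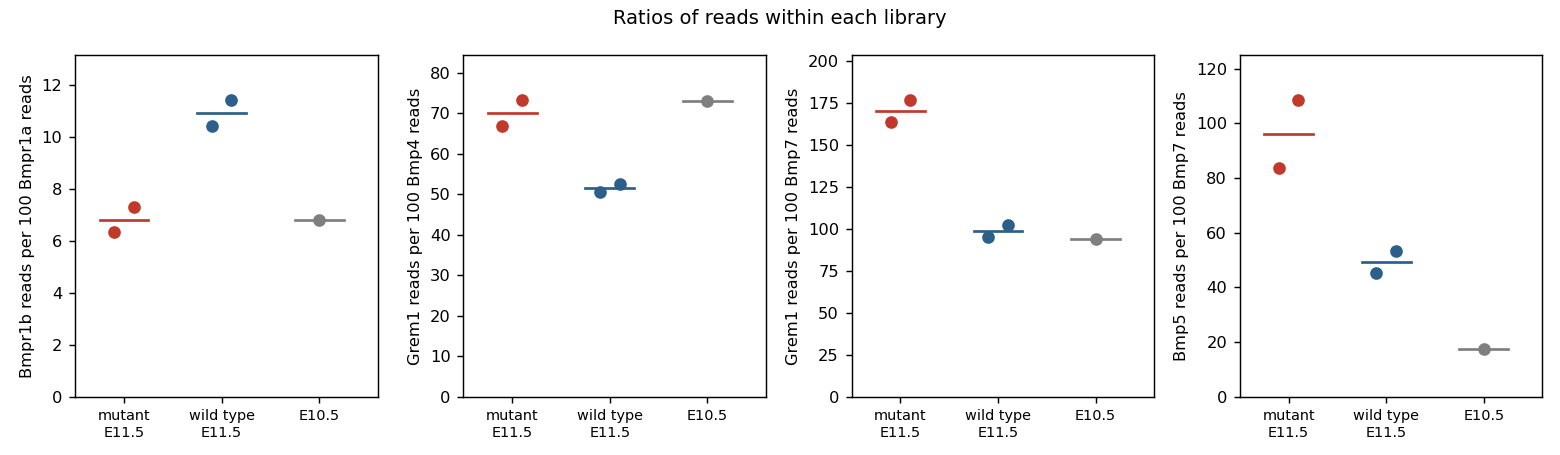
Reads of 1 member per 100 reads of another within each library, with each point a library and each bar the mean of the group. The E10.5 ratio lies within the mutant range for Bmpr1b over Bmpr1a and Grem1 over Bmp4, next to wild type for Grem1 over Bmp7, and below all E11.5 libraries for Bmp5 over Bmp7.

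Among reads of the 5 ligands, Bmp4 took between 45.0% and 50.2% in all 5 libraries, with 48.3% and 45.0% in mutant, 47.1% and 45.9% in wild type and 50.2% at E10.5. The share of Bmp5 was 16.5% and 20.2% in mutant, 11.3% and 12.6% in wild type and 6.82% at E10.5. The share of Bmp7 was 19.7% and 18.6% in mutant, 25.1% and 23.6% in wild type and 39.1% at E10.5. Bmp2 had 6.18% and 5.95% in mutant, 8.99% and 7.68% in wild type and 2.09% at E10.5. The genotypes overlapped in the shares of Bmp4 and of Gdf5, which had 9.24% and 10.2% in mutant, 7.48% and 10.1% in wild type and 1.82% at E10.5. The shares are of 1 total, so a lower share of a ligand can follow from more reads of another, and neither Bmp7 nor Bmp2 was called on its own CPM. Longer transcripts count for more in such shares.

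Levels were compared between members per kilobase of exon, with exon lengths from GENCODE vM21. The sources used here do not name the annotation the authors counted on, so this order is approximate. In wild type the order began with Bmpr1a at 49.8 ± 0.386 CPM per kilobase (SD, n = 2), then Bmp4 at 35.9 ± 1.80, Bmp7 at 10.6 ± 0.786 and Grem1 at 9.20 ± 0.201. Chrdl1 (6.13 ± 1.73), Gdf5 (6.02 ± 1.10), Bmpr1b (5.64 ± 0.413) and Bmp5 (4.98 ± 0.219 CPM per kilobase) came next, and Chrdl1 could not be separated from the other 3 beyond the spread between libraries. Bmp2 (3.74 ± 0.534) and Nog (1.16 ± 0.0997 CPM per kilobase) were lowest.

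In the mutant Bmpr1a (47.7 ± 1.24 CPM per kilobase) and Bmp4 (44.0 ± 4.95) overlapped at the top of the order. Grem1 (15.3 ± 0.728 CPM per kilobase) stood above Bmp7 (10.2 ± 1.04), against the order in wild type. Bmp5 (9.30 ± 0.763 CPM per kilobase) overlapped Bmp7, and Chrdl1 (8.21 ± 0.949) and Gdf5 (8.14 ± 0.0774) overlapped each other. Nog (1.01 ± 0.180 CPM per kilobase) was lowest. Bmpr1b (3.37 ± 0.245 CPM per kilobase) stood beside Bmp2 (3.32 ± 0.294), and the libraries of this pair overlapped.

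Set against the single E10.5 library, both E11.5 groups had more of most ligands, and no member was lower by 2-fold. A member was called past 2-fold when both E11.5 libraries differed from the E10.5 library at least 2-fold in the same direction, with no p-value because E10.5 had 1 library. By this rule 5 of 10 members were higher in mutant E11.5, where 18.3% of genes were higher and 2.74% lower. In wild-type E11.5 4 of 10 were higher, where 15.8% of genes were higher and 2.75% lower. Both comparisons share the E10.5 library.

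Gdf5 was 9.93-fold and 10.1-fold above its E10.5 level in mutant and 6.44-fold and 8.35-fold above it in wild type, with 1.89 CPM at E10.5 (exact Poisson 95% interval 1.61 to 2.21, for counting error only). Bmp2 was 5.80-fold and 5.11-fold above its E10.5 level in mutant and 6.77-fold and 5.52-fold above it in wild type, with 2.16 CPM at E10.5 (interval 1.86 to 2.50). Bmp5 was 4.75-fold and 5.33-fold above its E10.5 level in mutant and 2.61-fold and 2.78-fold above it in wild type, with 7.06 CPM at E10.5 (interval 6.50 to 7.65). In Gdf5 and Bmp5 both mutant libraries lay farther from E10.5 than both wild-type libraries, and in Bmp2 the genotypes overlapped. Nog was 4.26-fold and 3.30-fold above its E10.5 level in mutant and 4.62-fold and 4.09-fold above it in wild type, with 38 reads or 0.451 CPM at E10.5 (interval 0.319 to 0.620). Chrdl1 was 3.51-fold and 2.98-fold above its E10.5 level in mutant and 1.94-fold and 2.90-fold above it in wild type, with 17.1 CPM at E10.5 (interval 16.2 to 18.0). It passed the rule in mutant and missed it in wild type through replicate 1 alone.

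The other 5 members stayed within 2-fold of E10.5. The ratio of Grem1 to its E10.5 level of 37.9 CPM was 1.73 and 1.62 in mutant, against 1.02 and 0.992 in wild type. Wild-type Grem1 was thus at the E10.5 level, and the mutant was above both. The ratio of Bmpr1b to its E10.5 level of 21.2 CPM was 0.878 and 0.973 in mutant, against 1.47 and 1.63 in wild type. In this receptor gene the mutant was the group at the E10.5 level. Bmp4 had ratios of 1.89 and 1.61 in mutant, against 1.48 and 1.38 in wild type, to an E10.5 level of 52.0 CPM. Bmp7 and Bmpr1a had ratios between 0.857 and 1.01 in all 4 libraries, to E10.5 levels of 40.5 and 311 CPM.

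**Figure D4:**
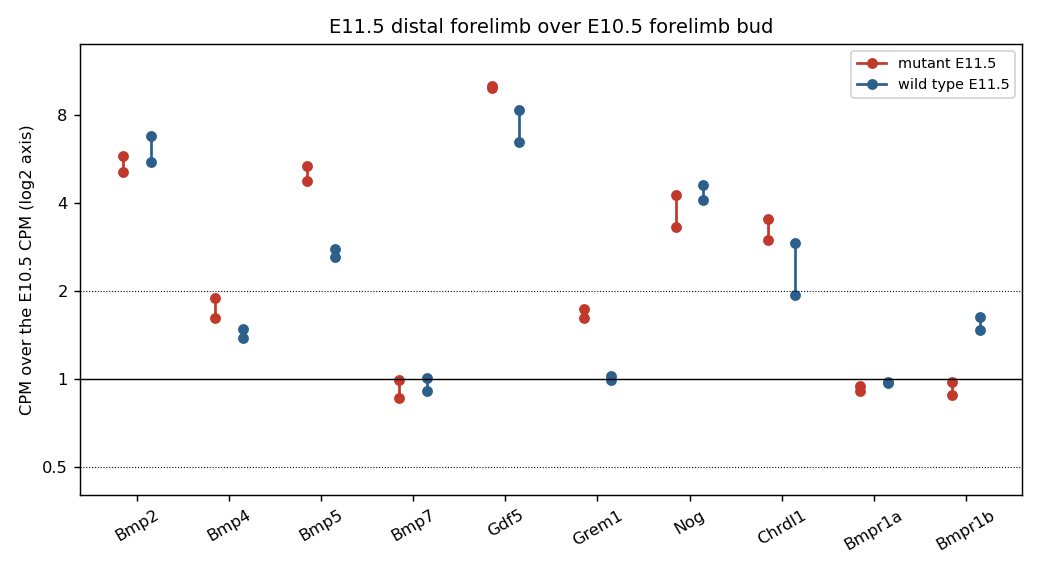
CPM of each E11.5 library divided by the CPM of the E10.5 library, on a log2 axis, with each point a library and dotted lines at 2-fold. Gdf5, Bmp2, Bmp5 and Nog lie above 2 in all 4 libraries, Bmp7 and Bmpr1a lie near 1, and Grem1 and Bmpr1b are near 1 in 1 genotype each.

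The rest of the pathway was read from 5 lists of 65 genes, of which 59 were tested. Of these 5 rose and 9 fell, beside 3.82% and 3.34% of all genes. The lists too were chosen with earlier results of these data known. Among other BMP and GDF ligands, 0 of 10 tested rose and 2 fell, with a median log2 fold change of -0.16. Gdf10, a BMP3-like ligand, had 3.13 and 2.63 CPM in mutant, against 8.13 and 7.34 CPM in wild type (a log2 change of -1.43, SE 0.19, adjusted p = 0.000479). Gdf6, a relative of Gdf5 in joint formation, had 2.42 and 2.98 CPM in mutant, against 5.12 and 6.12 CPM in wild type (-1.08, SE 0.21, adjusted p = 0.00820). Both were low in every library, while Gdf5 itself had the estimate above 0 given earlier.

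Among other secreted antagonists, 1 of 16 tested rose and 1 fell, with a median of -0.18. Smoc1, a matrix protein that counters BMP signalling, had 38.2 and 34.2 CPM in mutant, against 25.7 and 23.7 CPM in wild type (a log2 change of 0.54, SE 0.11, adjusted p = 0.00850). Fst, the follistatin gene, had 5.67 and 8.18 CPM in mutant, against 10.02 and 13.1 CPM in wild type (-0.76, SE 0.20, adjusted p = 0.0384). The Smoc1 call ended without mutant replicate 1 (adjusted p = 0.0933), and that of Fst without mutant replicate 1 (0.207) or wild-type replicate 2 (0.104). Chrd, the chordin gene and a relative of Chrdl1, was not called (log2 fold change 0.62, adjusted p = 0.163) and was chosen after its values were seen.

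Among other receptors and co-receptors, 3 of 12 rose and 0 fell, with a median of 0.19. Tgfbr3, the betaglycan co-receptor, had 36.7 and 34.8 CPM in mutant, against 22.9 and 25.2 CPM in wild type (a log2 change of 0.56, SE 0.11, adjusted p = 0.00814). Neo1, the neogenin receptor that also binds repulsive guidance molecules, had 256 and 249 CPM in mutant, against 206 and 190 CPM in wild type (0.34, SE 0.08, adjusted p = 0.0287). Rgmb, a BMP co-receptor that binds neogenin, had 22.1 and 22.9 CPM in mutant, against 16.8 and 16.1 CPM in wild type (0.44, SE 0.11, adjusted p = 0.0330). The Neo1 and Rgmb calls ended without mutant replicate 1 (adjusted p = 0.289 and 0.134) and without mutant replicate 2 (0.160 and 0.210). The type II receptor Bmpr2 was chosen after its values were seen and was not called (0.07, adjusted p = 0.799).

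Of 6 tested proteases that cut BMP precursors or chordin, 0 rose and 1 fell, with a median of -0.01. Pcsk6, a proprotein convertase, had 24.5 and 20.9 CPM in mutant, against 42.8 and 40.3 CPM in wild type (a log2 change of -0.88, SE 0.11, adjusted p = 0.000366). Of 15 Smads and response genes 1 rose and 5 fell, with a median of -0.02. Msx2 (log2 fold change -0.93), Msx1 (-0.84), Id1 (-0.75) and Id3 (-0.60), nuclear genes that BMP signalling induces, fell. Smad7 (-0.46, adjusted p = 0.0406), an inhibitory Smad, also fell, and Id4 (0.62, adjusted p = 0.0182) rose, both named after their values were seen. Id2 (0.01), Smad6 (-0.02) and Hey1 (0.18) of the same list were not called and were likewise picked after their values were seen. The Smad7 call ended without mutant replicate 1 (adjusted p = 0.0709), mutant replicate 2 (0.134) or wild-type replicate 1 (0.113), and the Id4 call without mutant replicate 1 (0.0873). Without mutant replicate 1, 1 gene rose and 7 fell over the 5 lists together, in place of 5 and 9.

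**Figure D5:**
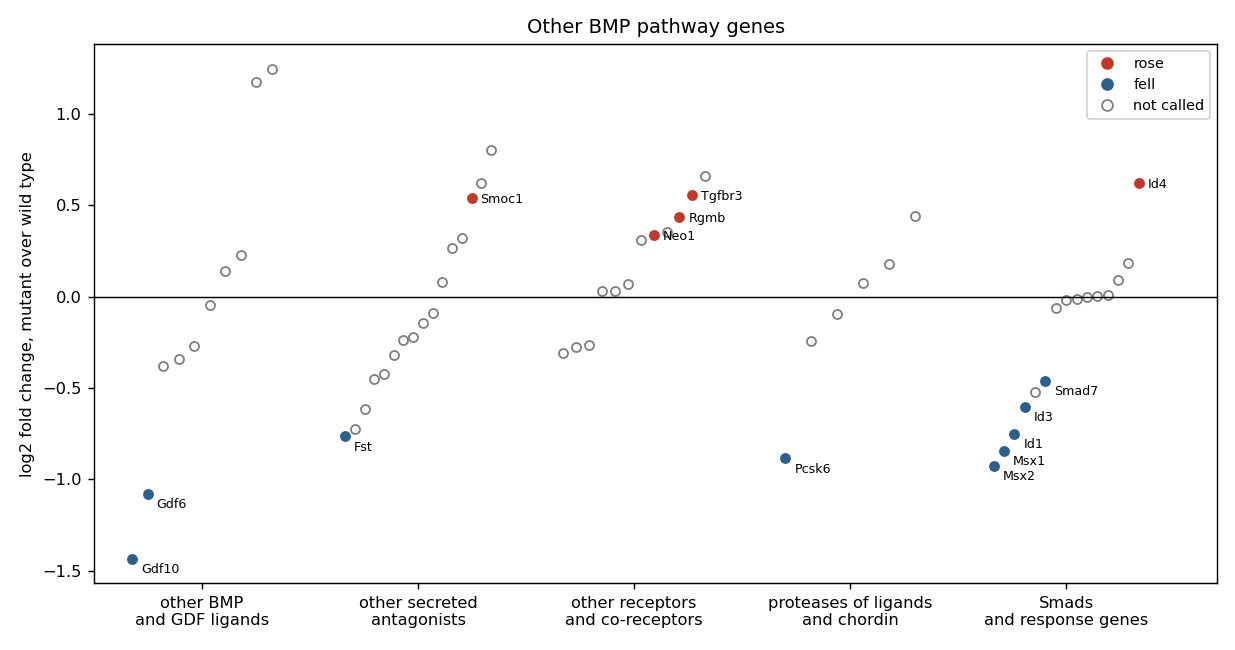
Log2 fold change, mutant over wild type, of the tested genes of 5 other BMP pathway lists, 1 point a gene, ordered by value within each list. The receptor list holds 3 risen and 0 fallen genes, and the Smad and response list 1 risen and 5 fallen.

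Markers of cell types that make or receive BMPs also differed between the genotypes, and their part in the changes of Grem1, Bmp5 and Bmpr1b was not tested. Of 8 limb mesenchyme markers Prrx1 rose (log2 fold change 0.49) and 5 fell, namely Msx1, Fgf10 (-0.68), Twist1, Lhx9 and Prrx2. Msx1 is also in the list of Smads and response genes above, so its fall is counted in both lists. Of 15 ridge and ectoderm markers 2 rose, namely Fgf4 (4.06) and Fgf8 (1.06), and Sp6, Krt8 and Krt14 fell. Their summed level was 349 and 369 CPM in mutant, against 359 and 360 CPM in wild type. Of 10 prechondrogenic and cartilage markers Col9a1 rose (0.45) and Matn4 fell (-0.88), and their summed level was 814 and 795 CPM in mutant, against 659 and 635 CPM in wild type. No marker of these 3 lists was at 0 in any library. Of 7 muscle lineage markers Actc1 fell and 0 rose. Their summed level was 52.0 and 66.2 CPM in mutant, against 78.8 and 90.6 CPM in wild type. Actc1 and Myog made up most of these sums, and the median log2 fold change of the 7 was 0.05. Of 7 neuron and Schwann cell markers Tubb3 and Stmn2 fell and 0 rose, with 19.9 and 20.8 CPM in mutant, against 41.5 and 45.8 CPM in wild type. Of 6 macrophage markers Lyz2 and Mrc1 rose and 0 fell, with 68.6 and 66.2 CPM in mutant, against 43.2 and 53.9 CPM in wild type. Flt1 rose among 7 endothelial markers (228 and 202 CPM in mutant, against 182 and 190 CPM in wild type). Hbb-bh1 rose among 6 erythroid markers (3011 and 2970.1 CPM in mutant, against 2401 and 2315 CPM in wild type). Markers of these lists were above 0 in every library as well. Several of these calls ended when 1 library was left out. Without mutant replicate 1 those of Flt1 (adjusted p = 0.344), Krt14 (0.316), Matn4 (0.110), Krt8 (0.0900), Prrx2 (0.0626) and Col9a1 (0.0544) ended. Without mutant replicate 2 those of Prrx2 (0.294), Lhx9 (0.239) and Twist1 (0.108) ended. Without wild-type replicate 1 that of Matn4 (0.0535) ended, and without wild-type replicate 2 those of Krt14 (0.0666), Flt1 (0.0600) and Krt8 (0.0558). Prrx1, Twist1, Lhx9, Prrx2, Sp6, Krt8 and Krt14 were named after their values were seen.

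The genes of most similar pattern were found by the root mean square difference of log2 CPM, centred on each gene's mean over the 5 libraries, among genes with a mean of at least 10 CPM. Cxxc4 (0.08), Hpse2 (0.11) and C630043F03Rik (0.16) were closest to Bmp5. Wdr86 (0.05), Trappc6a (0.05) and Ddx26b (0.07) were closest to Grem1, and Lck (0.07), Gm13152 (0.09) and Ahcy (0.09) to Bmpr1b. Among the 45 pairs of members, Bmp7 and Bmpr1a were closest (0.07), both nearly level over the 5 libraries, followed by Bmp2 and Nog (0.22) and by Bmp4 and Grem1 (0.23). With 3 groups in 5 libraries this likeness is a description.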

How the data were processed

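Total RNA of 5 forelimb libraries was depleted of ribosomal RNA and sequenced from strand-specific libraries, per the labels' protocols. The authors counted reads with HTSeq and deposited raw counts, as whole numbers, for each gene symbol. The submitters' processing notes also name TopHat2 2.0.13, Cufflinks 2.1.1, SAMtools and the mm9 genome. HTSeq's annotation, its filters and its handling of strand are not stated in the sources used here. The 5 HTSeq total lines were left out. Reads assigned to no feature made up 24.3% to 39.6% of their sum with the gene counts.

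CPM is the count per 1000000 reads in genes. The 4 E11.5 libraries entered the fit with genotype as the only term. In R 4.3.3, edgeR 4.0.16 gave TMM factors (0.977 to 1.01) and a quasi-likelihood F test by its older estimate, after filterByExpr had removed low genes (minimum count 10, total at least 15). The script was tested on simulated data. The SE was derived as the absolute log2 fold change over the square root of its F statistic, and 95% intervals used a t quantile. SE and 95% intervals belong to the fold change of a single gene and are not adjusted. Stage ratios used CPM by library size, with at least 10 counts at either stage. The 2 libraries of a genotype came from independent pools, so p-values refer to the spread between pools. The quasi-likelihood test estimates that spread for each gene partly from the other genes. A check of the counts showed that neither pair is a repeated deposit of 1 library. The chi-square per gene between replicates, given their depth, was 12.5 in mutant and 29.9 in wild type, so the wild-type pair was farther apart. Reads assigned to no feature were 34.4% and 39.6% in mutant, against 39.2% and 30.3% in wild type.

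The members and lists were chosen with earlier results of these data known. Besides the members, up to 4 called genes of each pathway list and up to 2 of each marker list, by smallest adjusted p, were named, and 3 genes of like pattern for each called member. There were 8 marker lists. The alternatives were DESeq2 1.42.0, its size factors, no count filter, the newer estimate, all 5 libraries, a replicate block and each library left out.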

Additional observations from a re-analysis of the deposited data

How the results depend on the processing

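Without a count filter 1762 genes were called in place of 1157, and 5 members in place of 3, with Gdf5 (adjusted p = 0.0331) and Chrdl1 (0.0132) added. Leaving out each E11.5 library in turn gave between 796 and 2018 called genes, between 3 and 5 called members and between 8 and 19 called genes of the other pathway lists, in place of 14. The count of 2018 came without wild-type replicate 1, and the 5 members without wild-type replicate 2, where Gdf5 and Chrdl1 were called as well. The 8 came without mutant replicate 1. Why the counts moved was not tested. With DESeq2, its size factors, the newer estimate or all 5 libraries in the fit, 3 members were called each time. The sign of each member's fold change held under all 10 settings except that of Bmp7, which was not called and had 0.04 without mutant replicate 2. The mutant and wild-type libraries share replicate numbers 1 and 2 but the labels do not say that these mark a shared litter or day. Deviations of same-numbered libraries had a correlation of -0.08 across genes, which are not independent. The replicate block gave 1252 called genes and 3 called members. Against E10.5, 1.5-fold in place of 2-fold gave 7 members in mutant and 5 in wild type, and 5 in wild type passed without wild-type replicate 1. TMM scaling left the 2-fold counts at 5 and 4. The shares of all genes at 1.5-fold or with a library left out were not counted, so those member counts cannot be set against them. Nog, with 38 reads at E10.5, is the member that depth limits most.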
